A study of Mus musculus with 4 samples.

Results

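Growth factor receptors that melanocytes are known to use, and their ligands, were compared between a non-pigmented and a pigmented line of mouse skin melanocytes. The genes were the receptor tyrosine kinases Kit, Met, Erbb2, Erbb3, Fgfr1, Igf1r and Axl and the ligands Kitl, Hgf and Fgf2. Every probe set of the array that was annotated to exactly 1 of these 10 symbols was taken, which gave 25 probe sets for 10 of the 18193 genes measured. No probe set was annotated to one of these symbols together with another. Both lines had a Balb/c background and were grown in serum with 2-mercaptoethanol and TPA, a phorbol ester that activates protein kinase C and is commonly added to melanocyte cultures. The non-pigmented line carried a point mutation in both copies of the tyrosinase gene, tyrosinase being the enzyme that starts melanin synthesis. The pigmented line is labelled as wild type with this mutation corrected. Each line had 2 arrays. The labels do not say how the mutation was corrected, whether a line was a single clone, or whether separate cultures were used for the arrays of a line. The p-values therefore reflect the spread among these 4 samples alone, and that spread may be technical.

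A receptor tyrosine kinase spans the cell membrane, binds its ligand outside the cell and, once paired with another receptor molecule, phosphorylates tyrosines inside it. Adaptor proteins dock there and pass the signal to Ras and the MAP kinases and to phosphoinositide kinases. In the skin, melanocytes depend on the Kit receptor and its ligand, stem cell factor (the product of Kitl), for migration and survival, and loss of either gives white spotting in mice. Hgf, the ligand of Met, and Fgf2 are mitogens for melanocytes in culture, and Erbb3, with Erbb2 as its partner, carries neuregulin signals in neural crest cells and Schwann cells.

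The arrays differed in RNA quality. For the Gapdh control probe sets the 3′ signal divided by the 5′ signal gave 0.903 for non-pigmented replicate 1, 20.2 for non-pigmented replicate 2, 0.864 for pigmented replicate 1 and 16.8 for pigmented replicate 2. Each line thus had 1 array with intact control RNA and 1 with a lost 5′ control signal. The titles also carry 2 dates, and each date was shared by 1 array of either line, non-pigmented replicate 1 with pigmented replicate 2 and the reverse. Differences below are in log2(signal + 16), non-pigmented minus pigmented. They were tested with limma over 12558 genes, each represented by its brightest probe set, and a gene was called at a Benjamini-Hochberg adjusted p under 0.05. Of all genes tested, 422 were called, or 3.36%, with 255 (2.03%) higher and 167 (1.33%) lower in the non-pigmented line. An exact permutation test of 2 arrays against 2 cannot give a two-sided p below 0.333. In simulated data made for this comparison with 12558 genes, 3.62% of changes of a log2 size of 2 were recovered, 77.7% of size 4 and 96.3% of size 6, so a gene that was not called may still differ by several fold.

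Kit and Met were lower in the non-pigmented line, whereas Fgfr1 and Erbb3 were higher. Met differed by 12.6-fold and Erbb3 by 4.85-fold. The log2 difference was -5.66 for Kit and 6.61 for Fgfr1. In both of these the mean log2 value of the dimmer line lay below the filter value described next, so the size depends on the pseudocount. With pseudocounts of 64 and 1 the difference went from -5.02 to -5.95 for Kit and from 5.12 to 7.87 for Fgfr1. The ligands Kitl, Hgf and Fgf2 gave no call. Of the 10 genes, 8 passed the filter on dim genes and were tested, and 4 of these were called, 2 higher and 2 lower, beside the 3.36% of all genes given above. The genes were chosen with earlier results of these arrays known, and Kit and Fgfr1 passed the filter only through their brighter line. This share is therefore only a description. The other 4 tested genes were Kitl, Erbb2, Igf1r and Axl. Hgf and Fgf2 lay below the filter, which was set at the 40th percentile over all probe sets and corresponds to 6.44 on the log2 scale and to a signal of 70.7. The files hold no detection measure, so a dim signal could not be told from background. In bulk RNA, fewer cells that express a gene and less of its RNA per cell cannot be told apart.

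**Figure D1:**
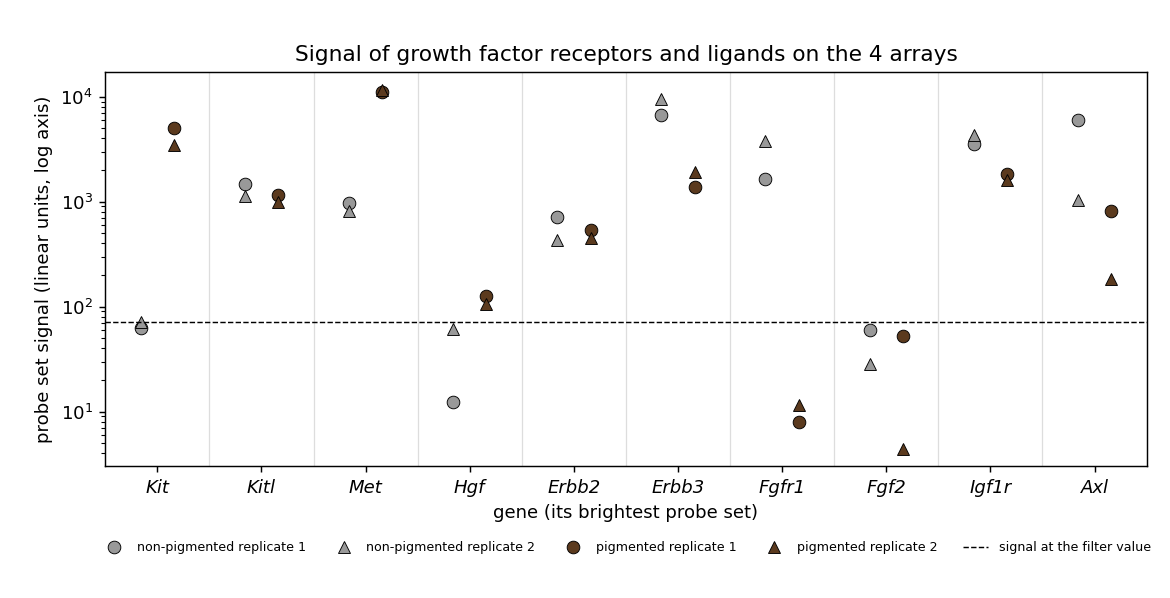
Signal of the brightest probe set of each gene on every array (vertical log axis, linear signal units), with the non-pigmented arrays in grey left of the pigmented arrays in brown and circles and triangles for replicates 1 and 2. Kit and Met are lower and Erbb3 and Fgfr1 higher on both non-pigmented arrays, and the dashed line marks the signal of 70.7 used as the filter; heights of different genes are not comparable, since probe sets differ in brightness.

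Kit (Entrez gene 16590) encodes the receptor of stem cell factor. Its brightest probe set, 1452514_a_at, had signals of 62.4 and 72.1 on the non-pigmented arrays, against 5086 and 3460 on the pigmented arrays. The groups were far apart and the non-pigmented arrays lay close to the filter value, so this probe set passed the filter only through the pigmented line. On the log2 scale the means were 6.38 ± 0.12 in the non-pigmented and 12.04 ± 0.39 in the pigmented line (SD, n = 2 each). The difference was -5.66 ± 0.44 (SE), with an adjusted p of 0.00554 by limma. It was -5.02 with a pseudocount of 64 and -5.95 with a pseudocount of 1. It was -5.47 and -5.86 within the 2 dates, and -6.02 within the pair of arrays with intact control RNA against -5.30 within the other pair. The second probe set, 1415900_a_at, had 23.7 and 18.0 on the non-pigmented arrays and 911 and 60.9 on the pigmented arrays. The direction was the same, but the pigmented arrays themselves differed widely, and the lower of them was the one with the lost 5′ control signal. Its difference of -2.86 ± 1.14 did not pass in the fit over all 27022 probe sets (adjusted p of 0.417). In that fit 1.49% of probe sets were called, 0.903% higher and 0.585% lower in the non-pigmented line.

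Kitl (Entrez gene 17311), which encodes stem cell factor, was not called on any of its probe sets. The brightest of its 4 probe sets, 1415855_at, had 1476 and 1129 on the non-pigmented arrays and 1154 and 988 on the pigmented arrays. The groups overlapped, and limma did not call the difference of 0.27 ± 0.42 (adjusted p of 0.857). The other 3 probe sets had differences from -0.41 to 0.51. Probe set 1448117_at followed RNA quality, with 553 and 121 on the non-pigmented and 398 and 76.6 on the pigmented arrays, so that the replicate 1 arrays of both lines were high and the replicate 2 arrays low.

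Met (Entrez gene 17295) encodes the receptor of hepatocyte growth factor. Probe set 1434447_at had 979 and 808 on the non-pigmented arrays, against 11109 and 11667 on the pigmented arrays. Replicates lay close together and the groups well apart, with both lines above the filter value. The log2 means were 9.82 ± 0.19 in the non-pigmented and 13.48 ± 0.05 in the pigmented line (SD, n = 2 each), and their difference was -3.65 ± 0.37 (SE; adjusted p of 0.00792). It was -3.55 and -3.75 within the dates. Probe set 1422990_at had 132 and 10.3 on the non-pigmented and 1411 and 190 on the pigmented arrays. The mean log2 value of its non-pigmented arrays was 5.96, below the filter value. This probe set thus passed the filter only through the pigmented line, and the size of its differences depends on the pseudocount. Within each pair of arrays of like RNA quality its difference was close to that of the first probe set, -3.27 in the intact pair and -2.97 in the other. It was -0.48 and -5.76 within the dates, and replicate 2 minus replicate 1 was -2.49 in the non-pigmented and -2.79 in the pigmented line. Without a block it was not called (adjusted p of 0.381), and with the RNA integrity pair as a block it was (adjusted p of 0.0179). Averaged over both probe sets the difference was -3.39 (adjusted p of 0.0621), so Met was called through its brighter probe set.

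Hgf (Entrez gene 15234), the ligand of Met, was dim on its 3 probe sets. The brightest, 1425379_at, had 12.2 and 61.5 on the non-pigmented arrays and 125 and 107 on the pigmented arrays. All 3 probe sets had both non-pigmented arrays below both pigmented ones, and none passed the filter. Over all probe sets that are not controls, 26.2% had this arrangement. When genes were not filtered, the difference of Hgf was -1.49 ± 0.63 and was not called (adjusted p of 0.454).

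Kit and Met, the 2 called receptors that were lower in the non-pigmented line, also had promoter windows in the RefSeq table used here, and these are shown because both genes carry the same direction of difference. RefSeq windows were found for 8 of the 10 genes. Erbb3 and Fgfr1 are named only. Each window runs from 250 bases before to 50 bases after a transcription start, on the plus strand of GRCm38.p6, at chr5:75574737-75575036 for Kit (the first of 2 starts) and chr6:17463707-17464006 for Met. Capitals mark matches on either strand to the E-box core CANNTG and to TGANTCA, the core of AP-1 sites. The E-box core is the kind of site that basic helix-loop-helix factors bind.
Kit: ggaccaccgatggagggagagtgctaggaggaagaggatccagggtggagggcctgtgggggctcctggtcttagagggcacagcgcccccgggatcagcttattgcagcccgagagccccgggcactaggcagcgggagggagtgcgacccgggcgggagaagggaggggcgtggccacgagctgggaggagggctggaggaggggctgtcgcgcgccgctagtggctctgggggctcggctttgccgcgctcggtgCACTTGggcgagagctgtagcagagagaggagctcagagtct
Met: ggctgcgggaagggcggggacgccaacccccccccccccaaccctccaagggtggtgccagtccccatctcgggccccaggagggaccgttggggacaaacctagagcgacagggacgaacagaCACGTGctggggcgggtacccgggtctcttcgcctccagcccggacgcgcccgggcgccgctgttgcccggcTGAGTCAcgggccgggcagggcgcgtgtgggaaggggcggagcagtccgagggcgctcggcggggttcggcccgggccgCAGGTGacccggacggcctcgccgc
The Kit window held 1 E-box core, CACTTG, and no AP-1 core. The Met window held 2 E-box cores, CACGTG and CAGGTG, and 1 AP-1 core, TGAGTCA. Of all 32851 windows of this length, 72.3% held CANNTG, 7.15% held its form CACGTG and 7.81% held TGANTCA. The form CATGTG, held by 14.2% of windows, was in neither. Such matches describe the letters of these windows and do not show binding.

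Erbb3 (Entrez gene 13867) encodes the neuregulin receptor whose own kinase is weak and which signals through a partner. Probe set 1434606_at had 6734 and 9412 on the non-pigmented arrays, against 1384 and 1915 on the pigmented arrays. Both non-pigmented arrays were above both pigmented ones, and all 4 were far above the filter value. The log2 means were 12.96 ± 0.34 in the non-pigmented and 10.68 ± 0.33 in the pigmented line (SD, n = 2 each), and the difference was 2.28 ± 0.40 (SE) with an adjusted p of 0.0397. It was 2.27 between the arrays with intact control RNA and 2.29 between the other pair, but 1.81 and 2.75 within the dates. With the date as a block, where 3.12% of all genes were called, Erbb3 was not (adjusted p of 0.112). Nor was it called without non-pigmented replicate 1 (0.130) or replicate 2 (0.274). In the fit over all probe sets the adjusted p was 0.0679. The other probe set, 1452482_at, was dim on every array, with 7.96 and 14.7 on the non-pigmented and 16.4 and 30.8 on the pigmented arrays. It did not pass the filter, and its difference of -0.52 had the opposite direction. Both its non-pigmented arrays lay below both pigmented ones, as on 26.2% of all probe sets that are not controls.

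Erbb2 (Entrez gene 13866), the partner of Erbb3, had 719 and 435 on the non-pigmented arrays and 534 and 451 on the pigmented arrays on its single probe set, 1424919_at. The groups overlapped, and the difference of 0.18 ± 0.45 was not called (adjusted p of 0.909). Of the 4 neuregulin genes of the ligand list, Nrg3 and Nrg4 did not pass the filter. Nrg1 had 59.8 and 58.9 on the non-pigmented and 231 and 27.0 on the pigmented arrays, and was not called (difference -0.45, adjusted p of 0.877). Nrg2 had 210 and 218 on the non-pigmented and 428 and 689 on the pigmented arrays. Both non-pigmented arrays of Nrg2 were below both pigmented ones, and its difference of -1.28 ± 0.44 was not called (adjusted p of 0.263).

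Fgfr1 (Entrez gene 14182) encodes a receptor of fibroblast growth factors. Its brightest probe set, 1424050_s_at, had 1637 and 3801 on the non-pigmented arrays, against 8.03 and 11.6 on the pigmented arrays. The pigmented arrays lay far below the filter value, so the probe set passed only through the non-pigmented line and the size of the fold depends on the pseudocount. The difference was 6.61 ± 0.53 (SE) with an adjusted p of 0.00585, or 5.12 with a pseudocount of 64 and 7.87 with a pseudocount of 1. The log2 means were 11.29 ± 0.85 in the non-pigmented and 4.69 ± 0.14 in the pigmented line (SD, n = 2 each). The suffix of this probe set marks probes that can match transcripts of more than 1 gene, although the annotation names Fgfr1 alone. The other 2 probe sets had the same direction with wide spread. Probe set 1425911_a_at had 941 and 78.5 on the non-pigmented and 23.9 and 38.6 on the pigmented arrays, and 1436551_at had 115 and 506 on the non-pigmented and 101 and 34.6 on the pigmented arrays. Only non-pigmented replicate 1 was high on 1425911_a_at, and non-pigmented replicate 2 was the highest on 1436551_at. Neither was called, with differences of 2.69 ± 1.08 (adjusted p of 0.421) and 1.76 ± 0.82 (adjusted p of 0.497). Without probe sets of that suffix, the gene had a difference of 1.76 and an adjusted p of 0.409.

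Fgf2 (Entrez gene 14173), a ligand of Fgfr1, was dim on its single probe set, 1449826_a_at. Signals were 59.99 and 28.3 on the non-pigmented arrays and 52.2 and 4.45 on the pigmented arrays. The groups overlapped, and without the filter the difference was 0.64 ± 0.69 (adjusted p of 0.816).

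Igf1r (Entrez gene 16001) encodes the receptor of insulin-like growth factors and had 5 probe sets, all of which passed the filter. The brightest, 1452982_at, had 3512 and 4339 on the non-pigmented arrays, against 1821 and 1614 on the pigmented arrays. These groups did not overlap, and the difference of 1.18 ± 0.39 (SE) was not called (adjusted p of 0.235, and 0.0711 with the RNA integrity pair as a block). Over the 5 probe sets the differences lay between 0.34 and 1.18. On 2 of the 5 both non-pigmented arrays were above both pigmented ones, as on 16.1% of all probe sets that passed the filter.

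Axl (Entrez gene 26362) encodes a receptor of the growth arrest protein Gas6. Probe set 1423586_at had 5962 and 1031 on the non-pigmented arrays, against 822 and 185 on the pigmented arrays. In both lines the replicate 2 array was lower, with a log2 difference from replicate 1 of -2.51 in the non-pigmented and -2.06 in the pigmented line, and the lower non-pigmented array lay close to the higher pigmented one. The difference of 2.61 ± 1.01 (SE) was not called (adjusted p of 0.323). It was 2.83 between the arrays with intact control RNA and 2.38 between the other pair, but 4.89 and 0.32 within the dates. Blocking on the RNA integrity pair called 884 genes (7.04%), and Axl was among them (adjusted p of 0.0124). Blocking on the date gave it an adjusted p of 0.325. Probe set 1438621_x_at of Axl was dim on all arrays, at 27.8 and 37.6 on the non-pigmented and 27.5 and 35.8 on the pigmented arrays.

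Of the 25 probe sets, 19 passed the filter, and in 6 of these the mean of 1 line lay below the filter value. In the fit over all probe sets, 1 was called higher (Fgfr1, 1424050_s_at, adjusted p of 0.0145) and 2 lower (Kit, 1452514_a_at, 0.0138, and Met, 1434447_at, 0.0177) in the non-pigmented line. With the RNA integrity pair as a block 3 were called higher and 3 lower, beside 4.64% of all probe sets (2.71% higher and 1.94% lower). The added probe sets were those of Axl (1423586_at, adjusted p of 0.0156), Erbb3 (1434606_at, 0.00903) and Met (1422990_at, 0.0179). The plot of all probe sets shows that the probe sets of Kit and Fgfr1 disagreed on the size of the difference, and that among their dimmer probe sets the size also differed between the pairs of arrays.

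**Figure D2:**
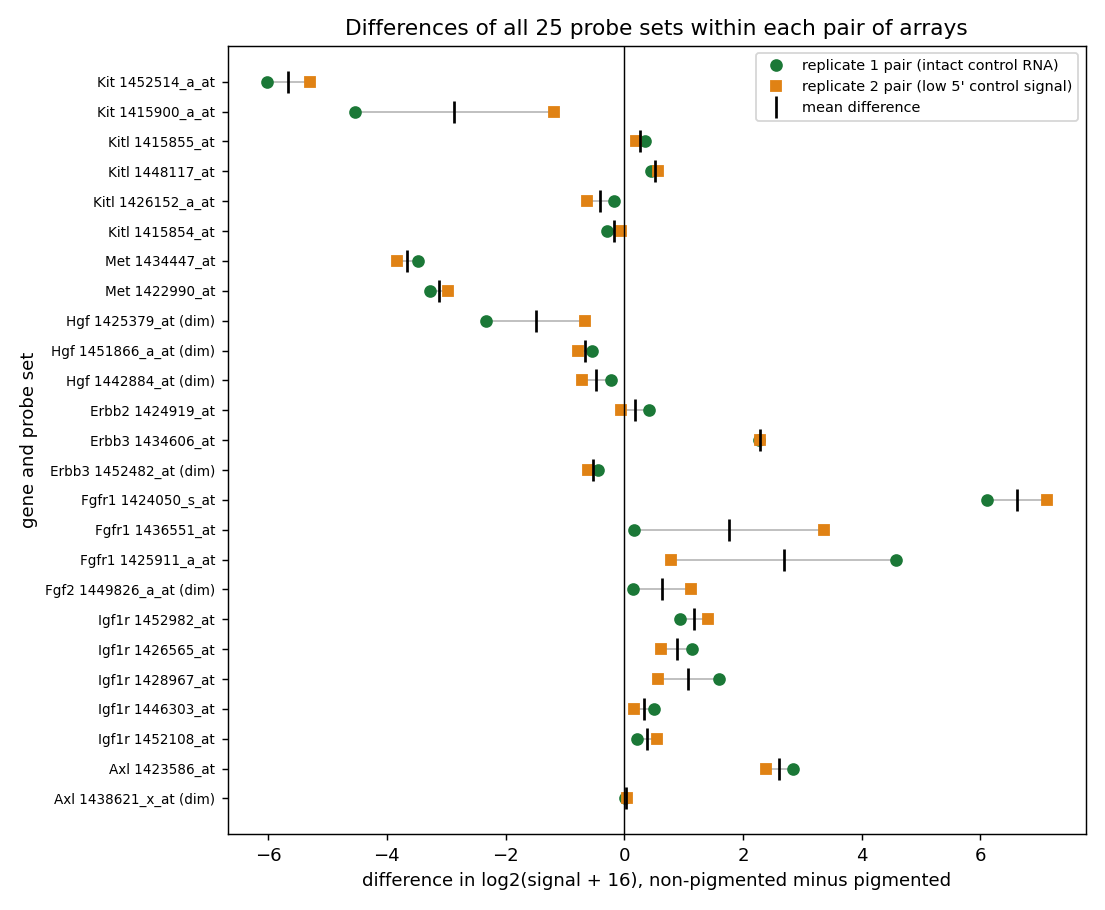
Difference in log2(signal + 16), non-pigmented minus pigmented (horizontal axis), for each of the 25 probe sets, within the replicate 1 arrays (circles), within the replicate 2 arrays (squares) and as their mean (bars); probe sets marked dim did not pass the filter. The 2 Met probe sets lie at -3.65 and -3.12, while the 3 Fgfr1 probe sets spread from 1.76 to 6.61.

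Related receptors and ligands were described in the same way. Of 21 related receptors tested, 3 were higher and 0 lower (14.3%), beside 3.36% of all genes, with a median difference of -0.19, beside a median of -0.07 over all genes tested. Of all 422 called genes 60.4% were higher in the non-pigmented line. Mertk, a receptor of the same family as Axl, had 2389 and 4478 on the non-pigmented arrays and 49.9 and 86.7 on the pigmented arrays. Its difference was 5.32 ± 0.51 with an adjusted p of 0.00702. The mean log2 value of its pigmented arrays lay below the filter value. Mertk thus passed the filter only through the non-pigmented line, and the size depends on the pseudocount. Ddr2, a collagen receptor, was higher by 3.59 and Fgfrl1, a member of the fibroblast growth factor receptor family without a kinase domain, by 2.89 (adjusted p of 0.0139 and 0.0208). Tyro3, the remaining receptor of the Axl family, had a difference of -0.27, and Fgfr3 one of 2.50 with an adjusted p of 0.0580. Of 22 related ligands 1 was called (4.55%, beside 3.36% of all genes) and the other 21 were not, and the median was -0.06. The called ligand was Tgfa, a ligand of the epidermal growth factor receptor, which was higher by 3.82 ± 0.61 (adjusted p of 0.0294). Gas6, the ligand of Axl and Mertk, had a difference of -0.14 (adjusted p of 0.941).

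Among genes of the cascade inside the cell the calls were 1 of 31 (3.23%) and 1 of 11 (9.09%), beside 3.36% of all genes tested. Of 31 adaptors and phosphoinositide kinase genes tested, only Pik3r3, a regulatory subunit of that kinase, was called, and it was lower in the non-pigmented line by a log2 difference of -2.56 ± 0.48 (adjusted p of 0.0477). Of 11 Ras and MAP kinase genes tested, only Rasgrp3, a Ras activator that binds phorbol esters, was called, with a difference of -2.54 ± 0.44 (adjusted p of 0.0380). The medians of both lists were -0.02 and -0.06. When the date was a block neither gene passed, at an adjusted p of 0.0939 for Pik3r3 and 0.0934 for Rasgrp3. Of 26 genes of receptor feedback and degradation 25 were not called and 1 was (3.85%, beside 3.36% of all genes tested), and the median was 0.36. The called gene was Spry1, a feedback inhibitor of these receptors, which was higher by 3.16 ± 0.49 (adjusted p of 0.0275). None of 9 genes of ligand activation and shedding was called by limma, and 0 had an unadjusted p under 0.05.

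Fibroblast growth factors need heparan sulfate on the cell surface to engage their receptors. Of 16 genes of heparan sulfate proteoglycans, their enzymes and other coreceptors, Sulf2, an extracellular sulfatase that trims heparan sulfate, was higher in the non-pigmented line. It had 6755 and 11125 on the non-pigmented arrays and 185 and 83.1 on the pigmented arrays, and the groups were far apart. Its difference was 5.94 ± 0.54 with an adjusted p of 0.00618. The other 15 were not called, so 6.25% of the list was called, beside 3.36% of all genes tested. The median of the list was 0.24. The syndecan genes Sdc1 (1.82, adjusted p of 0.0873) and Sdc3 (-1.84, adjusted p of 0.0849) differed in opposite directions without passing, and both passed with the RNA integrity pair as a block (0.0280 and 0.0266).

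**Figure D3:**
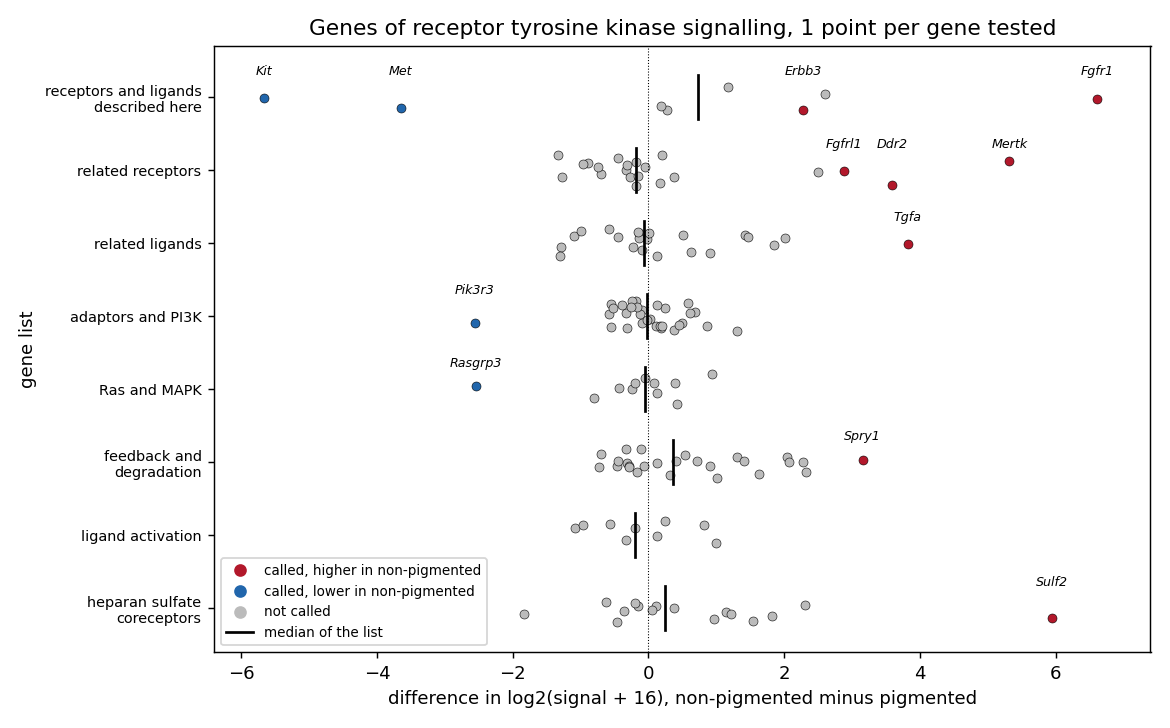
Difference in log2(signal + 16), non-pigmented minus pigmented (horizontal axis), of every tested gene in 8 lists, with called genes coloured and named and a bar at the median of each list. Outside the top row 6 called genes are higher and 2 lower in the non-pigmented line, and the list medians lie between -0.20 and 0.36.

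Markers of cell types were compared in the same way. Over all genes tested, 1.33% were called lower and 2.03% higher in the non-pigmented line. Of 10 melanocyte markers tested, 7 (70%) were called lower in the non-pigmented line and 0 higher, with a median of -3.81. Their summed signal was 15757 and 27015 on the non-pigmented arrays, against 149261 and 139937 on the pigmented arrays. Sox10, a transcription factor of the neural crest and of melanocytes, was bright in both lines, with 8268 and 8558 on the non-pigmented and 8602 and 10232 on the pigmented arrays (difference -0.16, adjusted p of 0.880). Of 7 Schwann cell and progenitor markers tested, 5 (71.4%) were called higher and 0 lower in the non-pigmented line, with a median of 3.75. Among the called markers, Sox2 had 45.2 and 2.65 and Nes 43.3 and 71.6 on the pigmented arrays. The mean log2 value of these arrays lay below the filter value for both genes. Sox2 and Nes thus passed the filter only through the non-pigmented line, and their sizes depend on the pseudocount. The summed signal of the 8 Schwann cell and progenitor markers measured was 22714 and 27700 on the non-pigmented arrays and 2369 and 3394 on the pigmented arrays. The part of either shift in the differences of Kit, Met, Erbb3 and Fgfr1 was not tested. Mast cells also express Kit, and their part in its difference was not tested. Of 9 mast cell markers measured 7 lay below the filter, and limma called 0 of the other 2, with 0 at an unadjusted p under 0.05. Their summed signal was 651 and 740 on the non-pigmented and 979 and 759 on the pigmented arrays. Of the remaining lists, limma called 1 of 5 keratinocyte markers (Krt10, higher by 3.02), 0 of 4 fibroblast, 0 of 1 endothelial and 0 of 5 immune markers. In that order 2, 1, 0 and 1 of these had an unadjusted p of limma under 0.05. Krt10 had 8.84 and 39.4 on the pigmented arrays, below the filter value. Summed signals lay between 1080 and 1149 on the non-pigmented and 753 and 1103 on the pigmented arrays for keratinocyte markers, and between 918 and 1077 on the non-pigmented and 1616 and 1777 on the pigmented arrays for fibroblast markers. They lay between 298 and 304 on the non-pigmented and 448 and 593 on the pigmented arrays for endothelial markers, and between 1453 and 3119 on the non-pigmented and 1325 and 1585 on the pigmented arrays for immune markers.

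The genes whose pattern over the 4 arrays lay nearest to a receptor were found by the distance between log2 values, each gene centred on its own mean. With 4 arrays in 2 lines many genes share a pattern, and nearness is a description only. Nearest to Kit were Fam174b, Atp6v0d2, a subunit of the proton pump of lysosomes, and Eva1b, at distances from 0.31 to 0.50, with 13 genes within a distance of 1. Nearest to Met were Mapk12, Tox3 and Etl4 (0.27 to 0.30), with 57 genes within 1. Nearest to Erbb3 were Ptpn6, a phosphatase that acts on Kit and other receptors, 5730409E04Rik and Gcnt1 (0.15 to 0.20), with 274 genes within 1. Nearest to Fgfr1 were Plxnb3, a semaphorin receptor, Afap1l2 and Ifitm3 (0.61 to 0.77), with 10 genes within 1. Ptpn6 itself had 792 and 1016 on the non-pigmented and 131 and 210 on the pigmented arrays, and its difference of 2.32 ± 0.45 was not called (adjusted p of 0.0534).

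The calls were not equally firm. Kit was called under all 16 alternative ways of processing, with adjusted p-values between 0.000303 and 0.0355. Met was called in 15 of 16 and Fgfr1 in 15 of 16. Erbb3 was called in 10 of 16, and Igf1r in none. Axl, which was not called as reported, passed in the blocked fit just named, and also when pigmented replicate 1 was left out (adjusted p of 0.0389), where its difference was 3.64. Its difference was 1.35 without non-pigmented replicate 1, 3.86 without non-pigmented replicate 2 and 1.58 without pigmented replicate 2.

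**Figure D4:**
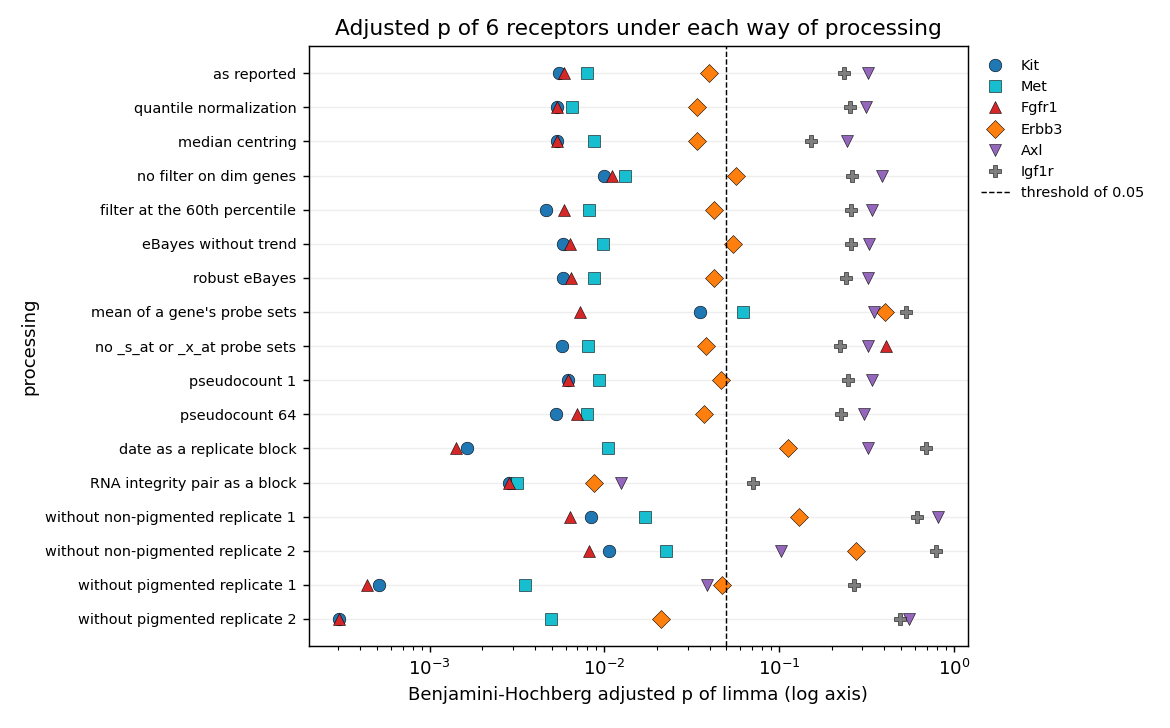
Adjusted p of limma (horizontal log axis) of 6 receptors as reported and under each of 16 alternative ways of processing, with a dashed line at 0.05. Kit stays left of the line throughout, Met and Fgfr1 cross it once each, Erbb3 lies on both sides of it, and Axl passes it under 2 alternatives.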

How the data were processed

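Total RNA of 4 samples, 2 per line, was hybridised to Affymetrix mouse expression arrays. The authors deposited linear probe set intensities, made with Affymetrix Expression Console per the submitters' processing notes, whose version and summary method are not given in the sources used here. Within every column of the deposited intensity values the mean after trimming 2% at either end was 500.0. This scaling does not correct RNA quality. Of 45101 probe sets 64 were controls. The platform annotation gave 34945 probe sets 1 symbol, 932 several and 9160 none, and 34741 matched RefSeq (GRCm38.p6) by Entrez number with 0 symbols changed.

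Values were taken as log2(signal + 16). Each of 18193 genes was represented by its probe set with the highest mean, and 5635 genes under the 40th percentile were left out. The groups were compared with limma 3.58.1 in R 4.3.3 (lmFit, eBayes with trend, no covariate), with Benjamini-Hochberg adjustment over 12558 genes, and separately over 27022 probe sets. Errors beside differences are standard errors. The number of arrays limits the precision. Figures were drawn with matplotlib 3.10.9.

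The genes, the lists of related genes and markers, and the tests were chosen with earlier results of these data known. Genes named were all members, up to 4 called genes per list and direction, and the 3 nearest to Kit, Met, Erbb3 and Fgfr1. Other genes (Nrg1, Nrg2, Nrg3, Nrg4, Tyro3, Fgfr3, Gas6, Sdc1, Sdc3 and Sox10, and the values of Ptpn6) were chosen after their values were seen. Some genes of the lists are not analysed here. Deviations from group means correlated at -0.51 between arrays of the same date and at 0.51 between arrays of the same RNA integrity class (a Gapdh 3′ to 5′ ratio over 3 or not); with 2 arrays per line these are the same value with the sign turned. The date, which the titles give, and the class were used as blocks in alternatives. The code was tested on simulated data, in 20 runs with 200 changed genes each, where 4.97% of calls were false.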

Additional observations from a re-analysis of the deposited data

How the results depend on the processing

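The 8 genes tested were recomputed under 16 alternatives, and 117 of the 128 values kept their direction and their side of the threshold. The date as a replicate block left Erbb3 at 2.28 with an adjusted p of 0.112, and 1 gene of the 10 called higher and 2 lower. It changed no other call among them. The RNA integrity pair as a block gave 884 genes instead of 422, and 6 probe sets of the 10 genes instead of 3. Averaging all probe sets of a gene gave Met -3.39 (adjusted p of 0.0621) and Erbb3 0.88 (0.405), so that 1 gene was called higher and 1 lower. Without probe sets shared between genes by their suffix Fgfr1 had 1.76 (0.409), and 1 gene was called higher. Erbb3 stayed at 2.28 but was not called without the filter (0.0568) or with eBayes without trend (0.0542), and 1 gene was called higher in each. Leaving out single arrays gave 234 to 772 genes, and 1 to 3 of the 10 called higher and 2 lower; the 3 came without pigmented replicate 1, where Axl was called too. The range of the difference was then -5.94 to -5.39 for Kit, -3.79 to -3.52 for Met, 2.04 to 2.52 for Erbb3 and 6.00 to 7.21 for Fgfr1. The count of 234 came without non-pigmented replicate 2, and that of 772 without pigmented replicate 1. A line left with 1 array was taken to have the spread of the other line. For Erbb2 it was -0.17 to 0.54, the negative value without non-pigmented replicate 1 (adjusted p of 0.998). Centring on the median moved the median difference of all genes to 0.18, against -0.07 as reported, and changed no direction among the 8 genes. The cause of these changes was not tested. Dim signals limit Hgf, Fgf2 and the dimmer line of Kit, Fgfr1, Mertk, Krt10, Sox2 and Nes. They also limit the non-pigmented line on Met probe set 1422990_at and the dimmer line of several of the nearest genes.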
